A study of Mus musculus with 3 samples.

Results

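Slamf1, Slamf6, Slamf7, Ly9, Cd48 and Cd84, which encode 6 receptors of the SLAM family, were examined with Sh2d1a, which encodes the adaptor SAP, and Fyn, the Src-family kinase that SAP recruits. The 8 genes were matched by symbol and not by their values, and all 8 were found among the 30406 gene identifiers that the 3 libraries share. Single-cell RNA-seq had been run on thymic T cells that bind the PBS57-loaded CD1d tetramer, the reagent for the invariant receptor of iNKT cells. After depletion of CD8+ cells with beads, the sort had taken NK1.1-CD24- cells positive for TCRβ and the tetramer, so the mature NK1.1+ NKT1 cells and the CD24+ progenitors were outside the gate. C57BL/6 mice without BMT were 7 weeks old by the labels. BM only mice were irradiated F1 (C57BL/6 x BALB/c) recipients of CD3+ T cell-depleted C57BL/6 marrow, 16 weeks old and 9 weeks after BMT. BM + Spl mice had the same age and interval and the same marrow with added C57BL/6 splenic cells, and had GvHD. Each group gave 1 library from several mice, so no spread between mice is known and no test was possible. Whether a sorted cell came from the marrow, the splenic graft or the recipient was not read.

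SLAM receptors sit on blood cells, and most of them bind their own kind on the neighbouring cell, whereas CD48 is a lipid-anchored ligand for the receptor CD244 and has no signaling tail. Tyrosine motifs in the tails of SLAMF1, SLAMF6, LY9 and CD84 bind SAP, and SAP in turn brings in FYN to pass on the signal, whereas SLAMF7 is known to use a related adaptor in place of SAP. In the thymus, iNKT precursors are selected by CD4+CD8+ thymocytes, which present CD1d together with SLAMF1 and SLAMF6. Mice without SAP or FYN are known to make few iNKT cells, and the signal is known to raise PLZF, the factor encoded by Zbtb16.

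The 6 receptor genes lie in a cluster of 365 kb on chromosome 1, from 171588624 to 171953170 of GRCm38 (mm10) in the GENCODE vM21 annotation. Sh2d1a lies on chromosome X from 42502453 to 42529330 and Fyn on chromosome 10 from 39368855 to 39565381. Ly9 lies inside the span of Cd244a on the opposite strand, and whether counting used the strand is not given in the sources used here. Slamf6 (171917515 to 171953170, plus strand) and Slamf7 (171632403 to 171653035, minus strand) had opposite orders between NKT1-gated and NKT2-gated cells, so the sequence just before the RefSeq start of each is shown, without annotated exon bases. The windows are chr1:171917212-171917461 for Slamf6 and chr1:171649008-171649249 for Slamf7, the second lying in an intron of a longer annotated Slamf7 transcript. Capitals mark a match, on either strand, to the T-box site TCACAC, the Runx site TGTGGT, the E-box CAGCTG, the GATA site AGATAA or the ETS site GGAAGT.
Slamf6: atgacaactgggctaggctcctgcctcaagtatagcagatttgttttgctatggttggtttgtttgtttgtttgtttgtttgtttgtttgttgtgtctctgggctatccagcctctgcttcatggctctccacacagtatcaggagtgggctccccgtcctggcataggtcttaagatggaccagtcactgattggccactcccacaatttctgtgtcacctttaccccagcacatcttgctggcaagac
Slamf7: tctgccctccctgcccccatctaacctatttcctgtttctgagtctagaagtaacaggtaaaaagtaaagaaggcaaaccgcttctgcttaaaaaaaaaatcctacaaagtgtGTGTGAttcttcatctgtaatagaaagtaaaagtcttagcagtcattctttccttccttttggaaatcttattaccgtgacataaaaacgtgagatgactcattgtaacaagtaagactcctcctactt
The Slamf6 window held no match to these 5 motifs, and the Slamf7 window held 1, the T-box site on the other strand. Among 32851 mouse promoter windows of RefSeq, each of 250 bases, TCACAC was found in 12.3%, TGTGGT in 14%, CAGCTG in 13%, AGATAA in 9.99% and GGAAGT in 19.7%. The short Myb motif AACNG, which 74.2% of windows hold and which is not in capitals, matched 1 time in Slamf6 and 3 times in Slamf7. Windows were found for 6 of the 8 genes. With exon bases included, TCACAC also matched 1 time each in those of Cd48, Fyn and Slamf1, so the match was not particular to Slamf7.

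The libraries held 35041153 to 60600408 UMIs (unique molecular identifiers, each standing for 1 captured transcript), and the filters kept 4434 cells in C57BL/6, 5970 in BM only and 5557 in BM + Spl, with medians of 12070, 4721 and 6463 UMIs per cell. The C57BL/6 table carries an earlier Cell Ranger version in its header (3.0.2) than the others (7.0.0, which by default also counts intronic reads), and V beta UMIs were found in 19.8% of its cells against 89.5% and 89.2%. Levels of C57BL/6 are therefore given side by side with those after BMT, since library kit, counting, age and BMT cannot be told apart. BM only and BM + Spl shared 43 cell barcodes, and doublets were kept.

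Cells were assigned to exclusive gates by UMIs of marker genes, none of which is 1 of the 8 genes. The NKT1 gate asked for 3 or more UMIs, from 2 or more genes, of its own list. That list was Tbx21, Il2rb, Nkg7, Cxcr3, Xcl1, Ccl5, Klrd1, Gzma, Gzmb and Ifng. Its UMIs also had to be over 2 times those of the NKT2 list (Zbtb16, Il17rb, Id3, Pdcd1, Il4). The NKT2 gate asked for the converse and in addition for a Zbtb16 UMI. The gates were thus not symmetric, since the NKT1 gate asked for no Zbtb16. NKT1-gated cells numbered 1158 in C57BL/6, 2612 in BM only and 788 in BM + Spl, and NKT2-gated cells 1181, 583 and 918. NKT1-gated cells were shallower, with medians of 6466, 4253 and 4378 UMIs against 13120, 8353 and 8982. Of the check markers outside the gate lists, 4 of 4 for NKT1, 4 of 4 for NKT17 and 3 of 4 for NKT2 (all but Il4ra) were highest by value in their own gate among these 3 gates in each library. In BM + Spl the NKT2 marker Gata3 was at 110 CPM in NKT2-gated and 107 in NKT1-gated cells. Its log2 ratio of NKT1 over NKT2, -0.046 (-0.214 to 0.12), held 0. A gate meant for myeloid cells was filled mainly by T cells with Cst3 UMIs. Only its cells with 3 or more UMIs of the other 4 markers are therefore used below, 193 in BM only and 408 in BM + Spl. The whole gate was read before the NKT1, NKT2, NKT17, Early and Mixed gates, which thus lack the cells it took by Cst3. These numbered 636 in C57BL/6, 524 in BM only and 785 in BM + Spl. Medians of the whole gate were 19390, 7323 and 8520 UMIs. Cst3 was at 75.5, 129 and 148 CPM in NKT1-gated and 53.2, 71.9 and 75.3 in NKT2-gated cells. A gate without Cst3 is among the alternatives at the end. Libraries also differed in receptor use. Segments used by iNKT cells made up the V beta UMIs of 90.9% (89.7 to 92) of callable NKT1-gated cells in BM only and of 38.3% (34.7 to 41.9) in BM + Spl. Foxp3-gated cells, which are regulatory T cells by marker and not iNKT cells, stood at 27.4% and 25.5%. NKT2-gated cells were at 95.5% and 96.1%.

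Between the NKT1 and NKT2 gates, Slamf6 was higher on the NKT2 side and Slamf7 on the NKT1 side in each library. The paper already names Slamf6 among NKT2 genes and Slamf7 among NKT1 genes of its C57BL/6 clusters, beside genes used here for the gates. These sides are thus not an independent reading of the data. Levels (CPM) are the UMIs of a gene scaled to 1000000 UMIs of the gate, with 95% intervals for counting error only. Slamf6, a self-binding receptor that signals through SAP, was at 197 CPM (190 to 204) in C57BL/6 NKT2-gated cells, 153 (142 to 164) in BM only and 152 (144 to 160) in BM + Spl. In NKT1-gated cells it stood at 48.4 CPM (43.8 to 53.5), 12.4 (10.4 to 14.6) and 73.9 (65.8 to 82.8). No interval of the NKT1 gate met one of the NKT2 gate, and the NKT2 level was 4.07-fold, 12.4-fold and 2.05-fold the NKT1 level. NKT17-gated cells were also below NKT2-gated cells, at 82.4 CPM (71.1 to 94.8), 55.1 (45 to 66.8) and 65.8 (52.6 to 81.2). Low Slamf6 was thus not particular to the NKT1 gate. The NKT2 gate was not the highest by value in any library, being below Early cells or cells of no gate, as given below.

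Slamf7, a self-binding receptor of cytotoxic lymphocytes and plasma cells, was at 130 CPM (122 to 138) in C57BL/6 NKT1-gated cells, 154 (147 to 161) in BM only and 47.3 (40.8 to 54.5) in BM + Spl. NKT2-gated cells held 25, 4 and 16 UMIs of it in all, or 1.55 CPM (1.01 to 2.29), 0.794 (0.216 to 2.03) and 1.84 (1.05 to 2.99). The NKT1 level was 83.6-fold, 194-fold and 25.7-fold the NKT2 level, with log2 ratios of 6.385 (5.815 to 7.02), 7.60 (6.24 to 9.48) and 4.68 (3.945 to 5.52). Slamf7 was also close to 0 in NKT17-gated cells, at 0.853, 2.14 and 1.53 CPM.

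Few cells showed UMIs of both transcripts, and how many the low detection of each would give was not computed. With each cell thinned to 2700 UMIs, which left out 15, 959 and 568 shallower cells of the 3 libraries, Slamf7 was detected in 27.7% (25.1 to 30.3), 29.3% (27.4 to 31.3) and 11% (8.74 to 13.5) of NKT1-gated cells. Without thinning the shares were 49.3%, 42.6% and 16.8%. Slamf6 was detected in 8.47%, 2.37% and 15.8% of thinned NKT1-gated cells and in 35.9%, 38.1% and 34.4% of thinned NKT2-gated cells. Both were found in 13 of 1157, 6 of 2191 and 6 of 703 NKT1-gated cells, and in 1 NKT2-gated cell of each library. Of Mixed cells, which hold both marker lists at similar UMIs, 4 of 418, 1 of 90 and 1 of 185 had both. Slamf7 without Slamf6 was found in only 13, 1 and 5 Mixed cells, so exclusion within cells is not shown there. At this depth most cells that express a gene show no UMI of it, so cells without either transcript cannot be told from cells with few copies.

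Cells between the gates had levels between the extremes, by value, for Slamf7 in each library and for Slamf6 in C57BL/6 and BM only. Slamf6 in BM + Spl did not fall from bin to bin. Cells of the NKT1, NKT2, Mixed and Early gates were placed by the share of the NKT1 list among the UMIs of both lists. In C57BL/6, Slamf6 was at 206, 181, 176, 129, 85.2 and 27.7 CPM from the lowest to the highest of 6 bins of this share, and Slamf7 at 0.429, 2.06, 10.3, 33.3, 80.7 and 158 CPM. Slamf6 was thus lowest, and Slamf7 highest, in the bins above 70% of the NKT1 list. In BM only the same bins held 162, 160, 144, 118, 41.8 and 6.97 CPM of Slamf6 and 0.671, 1.28, 20.3, 26.4, 130 and 159 CPM of Slamf7. BM + Spl held 147, 171, 130, 140 and 89.8 CPM of Slamf6 in its lower bins and was still at 54.9 CPM (45.8 to 65.4) in the highest bin, where Slamf7 reached 62.8 (52.9 to 73.9). That bin held iNKT V beta segments in 34.4% of its callable cells, against 91.9% in BM only.

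**Figure D1:**
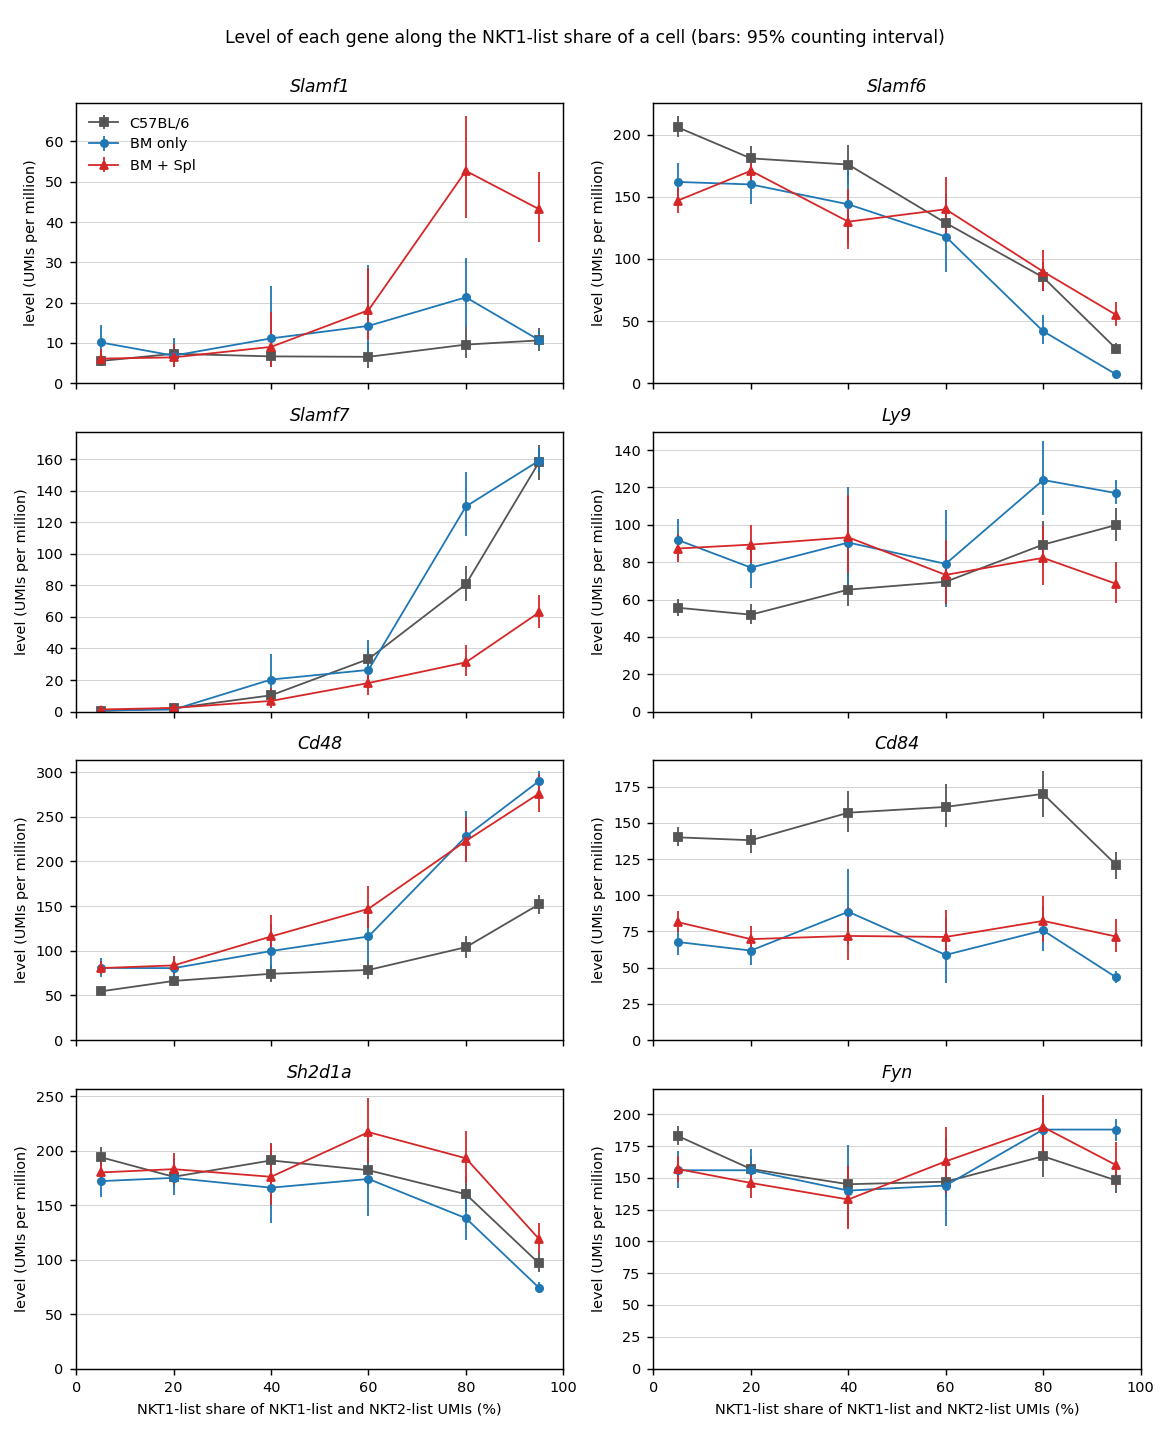
Level of each of the 8 genes (CPM, linear axes from 0) against the NKT1-list share of a cell's NKT1-list and NKT2-list UMIs in percent, drawn at the middle of 6 bins, with squares for C57BL/6, circles for BM only, triangles for BM + Spl and bars for 95% counting intervals. Slamf6 ends at 27.7, 6.97 and 54.9 CPM in the highest bin and Slamf7 at 158, 159 and 62.8 CPM.

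Cd48, the ligand of CD244, was higher in NKT1-gated than in NKT2-gated cells of each library. It stood at 134 CPM (126 to 142) in C57BL/6 NKT1-gated cells, 282 (272 to 292) in BM only and 251 (236 to 267) in BM + Spl, and at 59.3, 80 and 78.6 CPM in NKT2-gated cells. The folds were 2.25, 3.52 and 3.19. NKT17-gated cells were near NKT2-gated cells in C57BL/6, at 70 CPM (59.7 to 81.5), and well above them after BMT, at 200 (180 to 221) and 223 (198 to 250).

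Ly9, a self-binding receptor that recruits SAP, did not keep 1 direction. NKT1-gated cells held 95 CPM (88.4 to 102) in C57BL/6, 118 (112 to 125) in BM only and 71.9 (63.9 to 80.7) in BM + Spl, and NKT2-gated cells 53.9 (50.4 to 57.6), 85.2 (77.3 to 93.6) and 87.5 (81.4 to 94). The NKT1 level was 1.76-fold the NKT2 level in C57BL/6 and 1.39-fold in BM only, and in BM + Spl it was the lower of both, at 0.822-fold. NKT17-gated cells were below both gates by value, at 44.8, 56.7 and 44.4 CPM. In BM + Spl cells with an iNKT V beta segment and a Zbtb16 UMI, a split chosen after seeing the data, the order was the other way round by value only. The 65 NKT1-gated cells held 107 CPM (78.9 to 141), a log2 ratio of 0.28. That interval met the 87.5 CPM (81 to 94.5) of NKT2-gated cells with iNKT segments, so the order was not beyond counting error.

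Cd84, a self-binding receptor that also uses SAP, was at 138 and 141 CPM in NKT1-gated and NKT2-gated cells of C57BL/6, at 47.4 and 66.1 of BM only and at 77.7 and 76.7 of BM + Spl. The log2 ratios of -0.03 (-0.13 to 0.08) and 0.02 (-0.18 to 0.21) in C57BL/6 and BM + Spl held 0. BM only had the ratio of -0.48 (-0.68 to -0.28), short of 1.5-fold. NKT17-gated cells were at 194 CPM (177 to 213) in C57BL/6, above both other gates, and at 102 (88.2 to 118) and 80.3 (65.7 to 97.2) after BMT.

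Slamf1, the founding self-binding receptor of the family, was low in NKT1-gated and NKT2-gated cells of C57BL/6 and BM only. C57BL/6 held 10.6 CPM (8.5 to 13.1) in NKT1-gated and 6.47 (5.28 to 7.84) in NKT2-gated cells, and BM only 12.8 (10.8 to 15.1) and 9.53 (7.03 to 12.6). BM + Spl stood apart, with 47 CPM (40.6 to 54.2) in NKT1-gated and 5.41 (3.98 to 7.2) in NKT2-gated cells. The folds were 1.64, 1.34 and 8.69, and the log2 ratio of BM only (-0.05 to 0.93) held 0. NKT17-gated cells were at 9.81, 40.1 and 43.6 CPM, and iNKT segments were found in 92.6%, 61.5% and 40.5% of their callable cells. In BM only, NKT17-gated cells with iNKT segments held 22 CPM (14.1 to 32.7) and those with other segments 54.7 (36 to 79.6), while in BM + Spl both were alike at 44.4 and 44.8.

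Sh2d1a was higher in NKT2-gated cells, which unlike NKT1-gated cells had to hold a Zbtb16 UMI. This adaptor was at 193 CPM (186 to 199), 173 (162 to 185) and 183 (174 to 192) in NKT2-gated cells of C57BL/6, BM only and BM + Spl, and at 120 (112 to 127), 82.4 (77.3 to 87.9) and 147 (135 to 159) in NKT1-gated cells. The NKT2 level was 1.61-fold, 2.1-fold and 1.24-fold the NKT1 level, the last short of 1.5-fold. NKT17-gated cells were at 171 CPM (155 to 189), 86.1 (73.3 to 101) and 132 (113 to 154). NKT1-gated cells with an iNKT V beta segment and a Zbtb16 UMI, a split chosen after seeing the data, were at 168 CPM (131 to 213), 90.3 (77.3 to 105) and 170 (134 to 212). NKT2-gated cells with iNKT segments were at 187 (172 to 202), 174 (162 to 187) and 182 (173 to 192). With this split the intervals thus met in C57BL/6 and BM + Spl, and only BM only kept the order. B-gated cells, which should lack SAP, were taken as the background, 4 UMIs or 5.41 CPM (1.47 to 13.8) in BM only and 24 UMIs or 28.2 CPM (18.1 to 42) in BM + Spl. That background is not clean, since V beta was called in 13 of 92 and 31 of 87 of these cells. After thinning, 1 of 91 and 4 of 84 B-gated cells had a UMI of Sh2d1a, against 36.5% and 37.3% of NKT2-gated cells. B-gated cells had medians of 6679 and 8361 UMIs and NKT2-gated cells of 8353 and 8982.

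Fyn, the kinase, was at similar levels in both gates, with NKT1 to NKT2 folds of 0.892, 1.16 and 1.13. NKT1-gated cells held 154 CPM (145 to 162), 187 (179 to 195) and 174 (162 to 188), and NKT2-gated cells 172 (166 to 179), 161 (150 to 173) and 154 (146 to 162). None of these ratios was past 1.5-fold. Cycling cells were lower, at 119 CPM in C57BL/6, 117 in BM only and 115 in BM + Spl, and their intervals lay below those of both gates in each library.

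**Figure D2:**
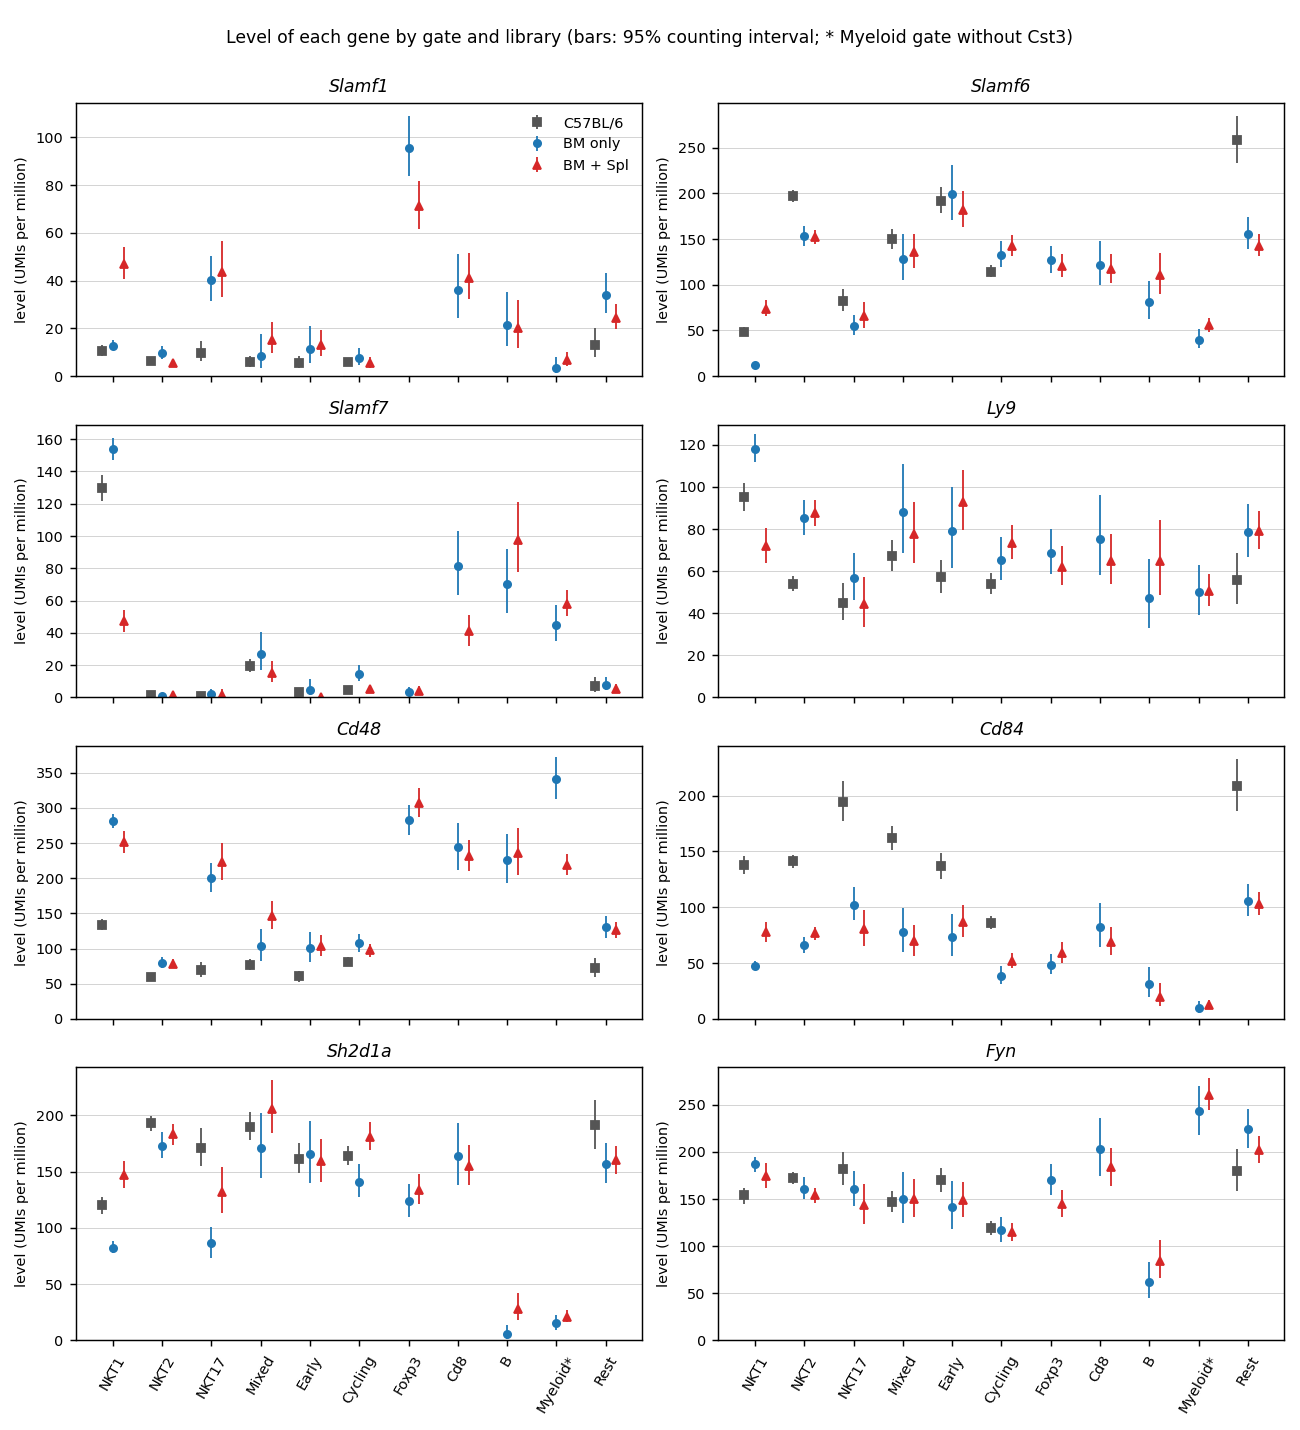
Level of each gene (CPM, linear axes from 0) in each gate with at least 50 cells, with squares for C57BL/6, circles for BM only, triangles for BM + Spl and bars for 95% counting intervals, where the asterisk marks the Myeloid gate without Cst3. Slamf7 is near 0 in the NKT2 and NKT17 gates, Sh2d1a is low in the B gate at 5.41 and 28.2 CPM and in the Myeloid gate without Cst3 at 15.1 and 21.2 CPM, and Slamf1 is highest in the Foxp3 gate at 95.7 and 71.3 CPM.

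Read over the 8 genes, a level was called past the fold where its log2 ratio was beyond 1.5-fold, its interval did not hold 0 and both gates held at least 20 UMIs together. All 8 had that many. The backgrounds, here and below, count genes with at least 200 UMIs, which Slamf1 in C57BL/6 did not reach, with 86 and 104 UMIs. Some genes called below between BM + Spl and BM only, or between V beta groups, did not reach it either. Examples are Slamf1 in NKT2-gated cells (47 and 48 UMIs) and Slamf7 in Cycling cells (23 and 36). In NKT1-gated cells with iNKT segments, Slamf1 (57 and 94) and Slamf6 (98 and 90) were others. Counts of the 8 genes and background shares are thus not alike. In C57BL/6, 4 genes were past 1.5-fold higher in NKT1-gated cells (Slamf1, Slamf7, Ly9, Cd48), where 12.2% of all genes with at least 200 UMIs were, and 2 were lower (Slamf6, Sh2d1a), where 8.31% were. In BM only, 2 were higher (Slamf7, Cd48; background 16.2%) and 2 lower (Slamf6, Sh2d1a; background 10.5%). In BM + Spl, 3 were higher (Slamf1, Slamf7, Cd48; background 14.7%) and 1 lower (Slamf6; background 9.58%). The median log2 ratio of the 8 genes was 0.345, 0.321 and 0.098, beside 0.055, -0.006 and 0.023 over all genes. Of the NKT1-gated cells, 8.38%, 1.34% and 8.76% had an NKT1 list only 2 to 3 times the NKT2 list.

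Gates before and beside these had their own levels. Early cells, which hold Zbtb16 with Sox4, Ccr9 or Cd24a, held Slamf6 at 192 CPM (179 to 207), 199 (171 to 231) and 182 (163 to 203), overlapping NKT2-gated cells in C57BL/6 and above them after BMT. Their Sh2d1a stood at 161 (149 to 175), 166 (140 to 195) and 159 (141 to 179), below NKT2-gated cells in C57BL/6 and overlapping them after BMT. The Mixed gate, with both lists at similar UMIs, held 150, 128 and 136 CPM of Slamf6 and 19.3, 26.8 and 15.2 CPM of Slamf7, between the NKT1 and NKT2 levels in each library, though after BMT the Slamf6 intervals met those of NKT2-gated cells. Cells of no gate had 258 CPM (233 to 285) of Slamf6 in C57BL/6, above the intervals of the other gates with at least 50 cells in that library, beside 110 CPM of Zbtb16.

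The BM + Spl and BM only libraries, which share sort and counting version, were then compared to see how the 8 genes differed with GvHD. In NKT2-gated cells the levels of 6 of the 8 genes were within 1.16-fold of each other, the exceptions being Slamf1 and the nearly absent Slamf7. Slamf6 was at 152 and 153 CPM, with a log2 ratio of BM + Spl over BM only of -0.01 (-0.14 to 0.12), Ly9 at 87.5 and 85.2 (0.04, -0.13 to 0.21), Cd48 at 78.6 and 80 (-0.025, -0.205 to 0.16) and Sh2d1a at 183 and 173 (0.08, -0.04 to 0.20). Slamf1 was the 1 gene of 8 past 1.5-fold, at 5.41 against 9.53 CPM from 47 and 48 UMIs, where 1.36% of all genes were past it in either direction. With the gates read on thinned cells it was not past the fold.

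NKT1-gated cells of these libraries differed in 6 of the 8 genes. Slamf6 was at 73.9 CPM (65.8 to 82.8) in BM + Spl and 12.4 (10.4 to 14.6) in BM only, a log2 ratio of 2.58 (2.285 to 2.88). For Slamf1 the levels were 47 and 12.8 CPM (1.88, 1.56 to 2.20), for Sh2d1a 147 and 82.4 (0.83, 0.68 to 0.98) and for Cd84 77.7 and 47.4 (0.71, 0.51 to 0.92). These 4 were past 1.5-fold higher, where 6.75% of all genes were. Slamf7 was lower in BM + Spl, at 47.3 against 154 CPM (-1.70, -1.93 to -1.49), and Ly9 at 71.9 against 118 (-0.72, -0.91 to -0.535), where 7.65% of all genes were past 1.5-fold lower. Cd48 at 251 against 282 CPM and Fyn at 174 against 187 stayed within 1.5-fold. The median log2 ratio of the 8 genes was 0.304, beside 0.033 over all genes, and in NKT2-gated cells 0.015 beside -0.005.

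In other gates few genes were past 1.5-fold. Over all kept cells 1 of 8 was, Slamf7 at 17.6 against 64.3 CPM (background 10.2%), and Slamf6 at 120 against 81 was just short at 1.49-fold. NKT17-gated cells had 1 of the 7 genes with at least 20 UMIs, Sh2d1a at 132 against 86.1 CPM (background 8.91%). Cycling cells had 1 of 8, Slamf7 at 5.28 against 14.5 CPM from 23 and 36 UMIs (background 1.8%), and Mixed cells had 0 of 8 (background 3.55%).

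**Figure D3:**
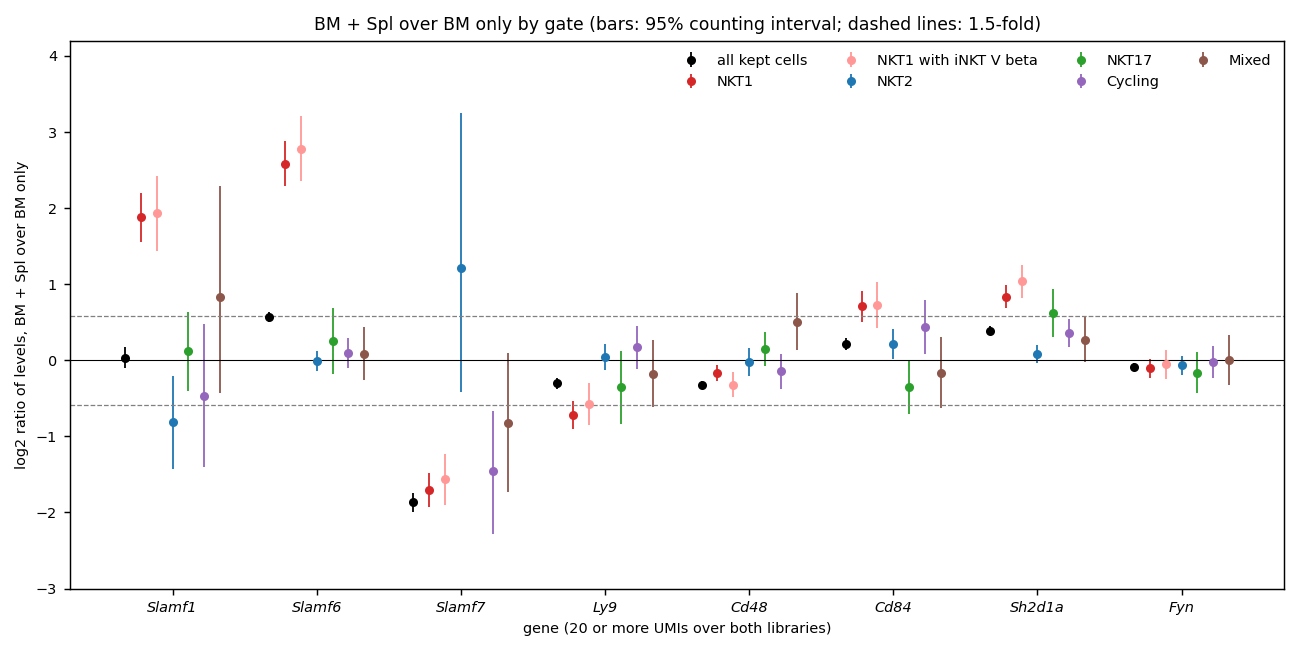
Log2 ratio of the level in BM + Spl over that in BM only for each of the 8 genes, with 1 colour for each gate, bars for 95% counting intervals and dashed lines at 1.5-fold, for genes with at least 20 UMIs over both libraries. Slamf6 and Slamf1 lie highest in the NKT1 gate, at 2.58 and 1.88, and the NKT2 gate lies at -0.01 for Slamf6.

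The NKT1 gates of both libraries held different cells, so they were split by V beta segment. NKT1-gated cells with iNKT segments numbered 2108 in BM only and 272 in BM + Spl, and those with other segments 211 and 439. Among cells with iNKT segments Slamf6 was at 9.54 CPM (7.67 to 11.7) in BM only and 65.7 (53.3 to 80) in BM + Spl, a log2 ratio of 2.78 (2.355 to 3.21). Slamf7 was at 158 (150 to 166) and 53.6 (42.5 to 66.7), Slamf1 at 9.97 (8.06 to 12.2) and 38.2 (28.9 to 49.5), Sh2d1a at 79.5 (73.9 to 85.4) and 164 (144 to 185), and Cd84 at 47.2 (42.9 to 51.8) and 78.4 (64.8 to 94). None of these intervals met. Thus 4 of 8 genes were past 1.5-fold higher (background 6%) and 1 lower (background 8.35%), while Ly9 at 117 and 79.1 CPM fell just short with a log2 ratio of -0.57 (-0.855 to -0.29).

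In cells with other segments 4 of the 8 genes were past 1.5-fold, where 11.9% of all genes were in either direction. Slamf1 and Slamf6 were higher in BM + Spl, and Slamf7 and Ly9 were lower. Slamf6 was at 35.5 CPM (24.5 to 49.9) in BM only and 86.6 (74.4 to 100) in BM + Spl, Slamf1 at 32.3 (21.8 to 46.1) and 59.7 (49.6 to 71.1), Slamf7 at 112 (91.5 to 136) and 32.2 (25 to 40.9), and Ly9 at 111 (90.5 to 134) and 65.9 (55.3 to 77.9). For Sh2d1a the levels of 131 (109 to 157) and 144 (128 to 161) overlapped. Within BM only, cells with other segments held 3.72-fold the Slamf6, 3.24-fold the Slamf1 and 1.65-fold the Sh2d1a of cells with iNKT segments, the 3 of 8 genes past 1.5-fold where 5.67% of all genes were. Within BM + Spl the same folds were 1.32 for Slamf6, 1.56 for Slamf1 and 0.88 for Sh2d1a, and Slamf7 was at 0.601-fold, so that Slamf1 and Slamf7 were the 2 of 8 past 1.5-fold where 5.66% of all genes were.

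**Figure D4:**
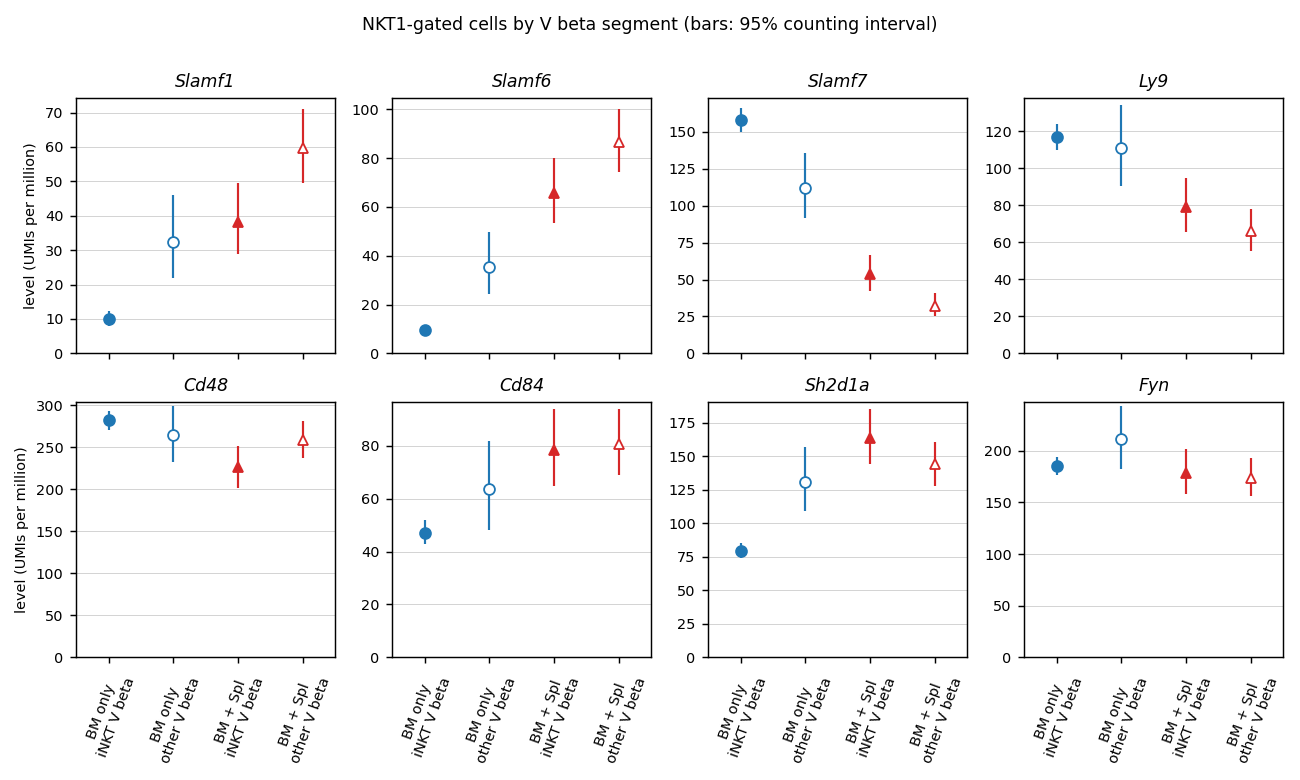
Level of each gene (CPM, linear axes from 0) in NKT1-gated cells with iNKT V beta segments (filled) or other segments (open) of BM only (circles) and BM + Spl (triangles), with bars for 95% counting intervals. With iNKT segments, Slamf6 is at 9.54 in BM only and 65.7 in BM + Spl, and Slamf7 at 158 and 53.6.

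An iNKT V beta segment alone does not make an iNKT cell, since 27.4% and 25.5% of callable Foxp3-gated cells carried 1. Zbtb16, whose factor marks iNKT cells, was at 75.7 CPM in the BM + Spl cells with iNKT segments and at 10.1 in those with other segments. B-gated cells, some of which had a V beta call, were at 12.9 CPM. Asking for an iNKT segment and a Zbtb16 UMI left 371 NKT1-gated cells in BM only and 65 in BM + Spl. The paper defines NKT1 cells by low PLZF, so this split can also favour cells with more Zbtb16 or more UMIs, which was not tested. In BM only, Slamf6 was at 9.54 CPM in all NKT1-gated cells with iNKT segments. In the cells with both features, Slamf6 was at 22.4 CPM (16.2 to 30.2) in BM only and 63.1 (42.3 to 90.6) in BM + Spl. In the same order, Slamf7 was at 166 (149 to 186) and 65.3 (44 to 93.2), and Sh2d1a at 90.3 (77.3 to 105) and 170 (134 to 212). None of these 3 genes had overlapping intervals. Slamf1 turned, at 9.39 CPM (5.57 to 14.8) and 6.53 (1.35 to 19.1) from 18 and 3 UMIs, with intervals that overlap. Cd84 at 66.8 and 80.5 CPM, Ly9 at 124 and 107 and Fyn at 185 and 141 also overlapped, while Cd48 was lower, at 254 (232 to 277) and 148 (115 to 188). The higher Slamf1 of the BM + Spl NKT1 gate was thus not seen in its cells with both features, which were chosen after seeing the data.

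Markers of other cells also differed between these NKT1 gates. The 6 genes of a list for Foxp3+ regulatory T cells (Foxp3, Ctla4, Il2ra, Ikzf2, Tnfrsf4, Capg) summed to 694 CPM in BM only and 1430 in BM + Spl, and 6 of 6 were higher in BM + Spl. Capg was at 550 and 563 CPM, and Tnfrsf4 (39.2 and 460) and Ctla4 (16.3 and 176) rose most in CPM. C57BL/6 NKT1-gated cells, with Foxp3 at 0, already summed to 576 CPM, so the list was not particular to regulatory T cells. Foxp3 itself, which the gate nearly removes, was at 0.871 and 1.74 CPM. A list of 7 B cell genes summed to 54.1 and 271 CPM, mostly Cd74 at 44.9 and 256, and 4 of 7 were higher, while Ms4a1 was at 0.0871 and 0. A list of 8 myeloid genes summed to 619 and 718 CPM with 4 of 8 higher, and Csf1r was at 0 in both. Cd4, which the paper also uses as a surface marker of NKT2 cells and which thus does not mark other cells alone, was at 36 and 228 CPM. In cells with iNKT segments the Foxp3 list summed to 667 and 1290 CPM, with 5 of 6 higher, and in those with other segments to 924 and 1590, with 4 of 6 higher. In NKT2-gated cells the B cell list was also higher in BM + Spl, at 88.9 and 165 CPM with Cd74 at 83.6 and 153. The Foxp3 list at 405 and 375 CPM and the myeloid list at 340 and 333 were not higher there. The part of these markers in the results for the 8 genes was not tested. The number of cells of a type and the RNA per cell cannot be told apart in sums over a gate.

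Levels were also read in cells of other types. Slamf1 was highest in Foxp3-gated cells, at 95.7 CPM (83.9 to 109) in 478 cells of BM only and 71.3 (61.8 to 81.9) in 448 of BM + Spl, and in each library that interval lay above those of all other gates. Cells of the Foxp3 gate with iNKT segments and with other segments were at 85.7 and 99.7 CPM in BM only and 67.4 and 72.4 in BM + Spl, with overlapping intervals. Cd48 was there at 283 and 307 CPM, and Slamf7 at 3.26 and 3.92. Cd8-gated cells, which the depletion left, held Slamf7 at 81.3 CPM (63.4 to 103) in BM only and 41 (32.2 to 51.4) in BM + Spl, and B-gated cells at 70.3 (52.5 to 92.2) and 97.6 (77.7 to 121). Slamf6 was at 127 and 120 CPM in Foxp3-gated, 122 and 117 in Cd8-gated and 81.1 and 111 in B-gated cells, where the intervals of both libraries overlapped in each gate. The cells with Lyz2, Csf1r, C1qa or Siglech UMIs held Fyn at 243 (218 to 270) and 260 (244 to 278) CPM, Cd48 at 341 (312 to 372) and 219 (204 to 235), and Cd84 at only 9.59 and 12.9, with Sh2d1a near the B cell background at 15.1 and 21.2. Their marker mix differed, since the whole Myeloid gate held 1651 UMIs of Lyz2 and 1829 of Siglech in BM only, and 466 and 5322 in BM + Spl. Levels of these cells in BM only and BM + Spl are therefore not those of 1 cell type.

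Other genes of the pathway were taken from a list of 33, of which 26 to 28 had at least 20 UMIs in the NKT1 and NKT2 gates of a library. Past 1.5-fold higher in NKT1-gated cells were 8 in C57BL/6, 9 in BM only and 9 in BM + Spl, and lower were 4, 2 and 2. The backgrounds given above count genes from 200 UMIs and these counts from 20, so the shares are not alike. In C57BL/6, Cd244a, Lyn, Fgr, Yes1 and Src were past the fold with fewer than 200 UMIs in both gates together. Cd244a, the receptor for CD48, was at 18.9 and 0.435 CPM in NKT1-gated and NKT2-gated cells of C57BL/6, 24.1 and 2.58 of BM only and 12.4 and 1.5 of BM + Spl. Both the receptor and its ligand were thus higher on the NKT1 side. The Src-family kinases Lyn and Fgr were also past the fold in each library, but at low levels, Fgr at 7.66 against 1.55 CPM, 7.67 against 0.993 and 6.97 against 0.921. Malt1, a paracaspase on the way to NF-kB, was at 90.9, 151 and 91.3 CPM in NKT1-gated and 32.7, 35.9 and 40.8 in NKT2-gated cells. Myb, a factor of immature T cells, was lower on the NKT1 side, at 24.5 against 70.9 CPM, 2.27 against 38.5 and 6.72 against 49.5.

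Between BM + Spl and BM only, 6 of 29 measured pathway genes were past 1.5-fold higher (background 6.75%) and 5 lower (background 7.65%) in NKT1-gated cells, and 0 of 24 in either direction in NKT2-gated cells (background 1.36%). Throughout this comparison the pathway genes count from 20 UMIs and the backgrounds from 200, so the shares are not alike. Nr4a1, an early answer to receptor signals, was at 182 against 72.4 CPM, Egr2 at 22.4 against 8.45 and Nfkb1 at 212 against 108. Ptpn11, a phosphatase that binds the tails of SLAM receptors, was at 81.1 against 32.4. The response genes did not move together, since Egr1 at 109 against 134 and Egr3 at 7.72 against 9.32 CPM were lower by value, short of 1.5-fold. Sh2d1b1, of the SAP family, was also among the higher genes, but at only 4.23 against 0.959 CPM from 17 and 11 UMIs. Lower were Cd244a at 12.4 against 24.1, Malt1 at 91.3 against 151 and Ptpn6, another phosphatase, at 260 against 427. In cells with iNKT segments 5 of 28 were higher (background 6%) and 3 lower, near the background of 8.35%, with Egr2 at 34.8 against 8.7 CPM and Nr4a1 at 218 against 71.1.

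The genes most like each of the 8 across gates were sought by the Pearson correlation of log2(CPM + 1) over gates with at least 50 cells, 8 in C57BL/6 and 11 in each library after BMT, averaged over the libraries. Gates of a library share its depth and chemistry, the Myeloid gate of mainly T cells was among them, and the values are a description. Slamf6 was most like Myb (mean r of 0.902), Mgst2 (0.897) and Scd2 (0.867), and Slamf7 most like Klrd1 (0.895), Tm6sf1 (0.894) and Lyst (0.891), where Klrd1 is itself a gene of the NKT1 gate. For Sh2d1a the nearest was Nab2 (0.972), for Cd48 Fgl2 (0.922), for Slamf1 Tnip1 (0.892), for Cd84 Gpsm3 (0.888), for Fyn 4921524J17Rik (0.875) and for Ly9 Slc14a1 (0.859). Among the 8 genes themselves the highest mean was that of Cd84 with Fyn (0.786) and the lowest that of Slamf6 with Cd48 (-0.706).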

How the data were processed

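The authors aligned reads to mm10 with Cell Ranger and deposited UMI counts per gene and cell, without normalization. The processing notes also list Seurat 4.0.2. A cell was kept when more than 200 but fewer than 6000 genes were detected and mitochondrial genes made up less than 10% of its UMIs. Gates followed fixed marker UMIs, read in the order B, Myeloid, Foxp3, Cd8, Cycling, NKT17, Early, NKT1, NKT2, Mixed. V beta was called at 80% of a cell's V beta UMIs. UMIs were summed per gate and scaled to CPM. With 1 library per condition no test was run, and the exact Poisson (CPM), Clopper-Pearson (shares) and conditional binomial (ratios) intervals cover counting error only. Named genes are the 8 genes, pathway genes past the fold, and the 3 genes most like each, of which the nearest and some others are printed. The genes and lists were chosen with earlier results of these data known. Python 3.11.15, numpy 2.4.6, scipy 1.17.1 and pandas 2.3.3 were used, and calculations were tested on simulated counts. The alternatives tried were 11 planned and 3 added after seeing the data.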

Additional observations from a re-analysis of the deposited data

Results flagged for a closer look

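Ly9 and Fyn had NKT1 to NKT2 ratios of opposite sign in different libraries, each with an interval that did not hold 0. The log2 ratio of Ly9 was 0.82 in C57BL/6 and 0.48 in BM only but -0.28 in BM + Spl. That of Fyn was -0.17 in C57BL/6, 0.22 in BM only and 0.18 in BM + Spl. The sign of Cd84 also differed (-0.03, -0.48 and 0.02), with intervals that held 0 in C57BL/6 and BM + Spl. All these intervals cover counting error in 1 library each, the difference between libraries was not tested, and for Fyn no ratio was past 1.5-fold.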

How the results depend on the processing

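No paired analysis was possible because each condition had 1 library. Counts of the 8 genes past the fold gave 157 values under the alternatives, of which 132 stayed within 1.5 times the main count. Of 945 values of single genes, 792 were read as the same, 151 as moved and 2 as reversed. Log2 ratios past the fold in the main reading gave 288 values, of which 247 were the same, 39 moved and 2 were reversed. No share over all genes stands beside the counts below. For NKT1 over NKT2 in C57BL/6, 2 genes were higher and 1 lower both at 2-fold and with iNKT V beta cells only, and 1 was lower with a list ratio of 1. For BM + Spl over BM only in all cells, 2 were past the fold with the mean over cells, without the 6% of cells with the most UMIs, and with iNKT V beta and Zbtb16 cells, and 3 with iNKT V beta or Trav11 cells. In NKT1-gated cells 2 were higher and 1 lower at 2-fold, 2 higher with iNKT V beta and Zbtb16, and 1 lower with iNKT V beta. In NKT2-gated cells it was 0 with thinned gates, at 2-fold and with Trav11. In NKT17-gated cells it was 3 with thinned gates, 0 at 2-fold and 2 with iNKT V beta. In Mixed cells it was 3 with thinned gates and 1 with the mean over cells, without the deepest 6% and with the Myeloid gate without Cst3. In Cycling cells it was 0 with iNKT V beta and Zbtb16. In those cells the log2 ratio of BM + Spl over BM only was reversed for Slamf1 in the NKT1 gate (-0.525) and for Sh2d1a in the NKT17 gate (-0.044, 24 and 95 cells). The causes were not tested. Leaving out the shared barcodes moved none of the counts beyond 1.5 times. Slamf1 in NKT2-gated cells rests on 47 and 48 UMIs, and with 1 library per condition the spread between mice is unknown.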
